A study of Mus musculus with 14 samples.

Results

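Ferroportin, the product of Slc40a1, is the only known exporter of iron from mammalian cells, and it works beside a set of importers, chaperones and RNA-binding regulators. This account covers 10 mouse genes of that set: the exporter Slc40a1, the importers Tfrc, Slc39a8, Slc39a14 and Slc11a2, the mitochondrial importer Slc25a37, the iron regulatory protein genes Ireb2 and Aco1, and the ferritin partners Ncoa4 and Pcbp1. They were listed by name and by role, and each was looked up by symbol among the 23930 transcript targets of the deposited files. Of the 10 genes, 9 matched 1 target each, and these 9 all had enough reads to stand among the 14168 targets tested. Ncoa4, whose product carries ferritin to the lysosome so that its iron is released, matched no target and was not analysed here.

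The cells were LSECs, the liver sinusoidal endothelial cells, whose pores let plasma pass between the sinusoids and the hepatocytes. They came from female wild-type C57BL/6J mice, 10 to 11 months old for the 7 aged libraries and 8 to 10 weeks old for the 7 young libraries, with no other allele or agent in either group. LSECs were isolated by flow cytometry on dim CD45 together with high STAB2 and CD146. Experiment 1 held 3 libraries of each age and experiment 2 held 4 of each, and a library is named here by age, experiment and number, so aged 1.3 is the third aged library of experiment 1. The labels do not say that each library is 1 mouse, so the p-values measure the spread between these libraries, which may be partly technical.

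Iron reaches cells bound to transferrin, through the transferrin receptor encoded by Tfrc, or as free ions through metal transporters, and it leaves through ferroportin. Inside the cell 2 iron regulatory proteins bind RNA hairpins called iron-responsive elements when iron is low: at the start of an mRNA they block its translation, and in the 3′ untranslated region (UTR) of Tfrc they protect the mRNA from decay. In the liver LSECs are the main source of BMP6, the signal that makes hepatocytes produce hepcidin, the hormone that removes ferroportin from cell surfaces. Ferroportin protein is thus set by hepcidin and by translation as well as by mRNA, and only mRNA was measured here.

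The elements of the exporter and of the transferrin receptor are printed because they are the sequence by which the same proteins act on export and on import. A search of annotated UTRs on the transcribed strand looked for a loop with the letters CAGTGN above 5 paired bases (GENCODE release M21, build GRCm38). A C for the unpaired place on the 5′ side, just below these pairs, was also required. Pairing at the 5 positions below the C was counted but not required, and all 5 were paired in each element printed here. It found 1 match in the 5′ UTR of Slc40a1 and 4 in the 3′ UTR of Tfrc. Capitals mark the 6 letters of the loop, and each line runs 5′ to 3′ over 27 bases of the RNA, written with T.
Slc40a1 element 1: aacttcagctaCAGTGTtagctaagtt
Tfrc element 1: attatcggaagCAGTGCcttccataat
Tfrc element 2: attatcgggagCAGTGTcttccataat
Tfrc element 3: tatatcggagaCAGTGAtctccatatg
Tfrc element 4: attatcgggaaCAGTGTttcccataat
The Slc40a1 element lies at chr1:45925466-45925492 on the minus strand, in 1 of the 4 annotated Slc40a1 transcripts that have a 5′ UTR. The Tfrc elements lie on the plus strand at chr16:32631220-32631246, chr16:32631599-32631625, chr16:32631664-32631690 and chr16:32631711-32631737, in 1 of 2 transcripts with a 3′ UTR. Of all genes with such annotation, 0.144% of 20899 held a match in the 5′ UTR and 0.609% of 21022 held one in the 3′ UTR. None of the other 8 listed genes held a match in either UTR, which says only that these letters and pairs are not in the annotated windows. The match describes sequence, and binding was not measured.

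Read depth was 6710403 to 13977361 gene reads a library. Levels are CPM, read counts scaled to a common library size, with library sizes adjusted by TMM, edgeR's trimmed-mean scaling. Each gene was read through 1 amplicon, so levels compare libraries but not genes. All 8 LSEC markers were read in every library, with 2 higher and 6 lower in aged cells and none called. Stab2, the gene of the receptor used in the sort, had 1653 to 2166 CPM in aged and 1736 to 2372 CPM in young libraries. Lyve1, which encodes a hyaluronan receptor, had 322 to 1625 CPM in aged and 881 to 2317 CPM in young libraries. The lowest aged values of Oit3 and Gpr182, at 359 and 499 CPM, were also under the lowest young values, at 675 and 1029 CPM. Aged 1.3 stood apart. Its 5 matched hepatocyte markers summed to 4535 CPM against at most 1737 CPM in any other library, its T and NK cell markers to 342.9 against at most 58.4 CPM, and its 8 LSEC markers to 15020 CPM, the lowest sum. Targets of olfactory, taste and vomeronasal receptors, which LSECs are not known to use, took 1.20 to 3.18% of gene reads in experiment 1. In experiment 2 they took 2.81% in aged 2.4 and 2.92% in young 2.2, and at most 0.96% in the other 6 libraries. Aged 1.1 and aged 1.2 were the most alike pair, but their counts differed by more than sampling noise, with a chi-square of 7.21 per target against 23.0 or more for the other pairs of the same age and experiment.

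None of the 9 genes was called, that is, had a Benjamini-Hochberg adjusted p under 0.05 in edgeR's quasi-likelihood fit of age with the experiment as a term. Ferroportin mRNA was the highest of them relative to young cells, at 1.46-fold, and mitoferrin-1 mRNA (Slc25a37) was the lowest, at 0.737-fold. Across all tested targets 0.162% were called, 23 of 14168, so a list of 9 with no call is near that background. At an unadjusted p under 0.05, 1 of the 9 genes was higher in aged LSECs, Slc40a1, and 1 was lower, Slc25a37. The background at that looser mark was 3.43% of targets higher and 3.34% lower. DESeq2 and limma-voom gave 0 adjusted calls among the 9 as well, and each had the same pair of genes at an unadjusted p under 0.05. In sum 3 genes were higher and 6 lower, with a median log2 fold change of −0.09 for the 9 genes and −0.00 for all tested targets. The median size of the log2 fold change, regardless of sign, was 0.24 for the 9 genes and 0.15 for all tested targets.

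**Figure D1:**
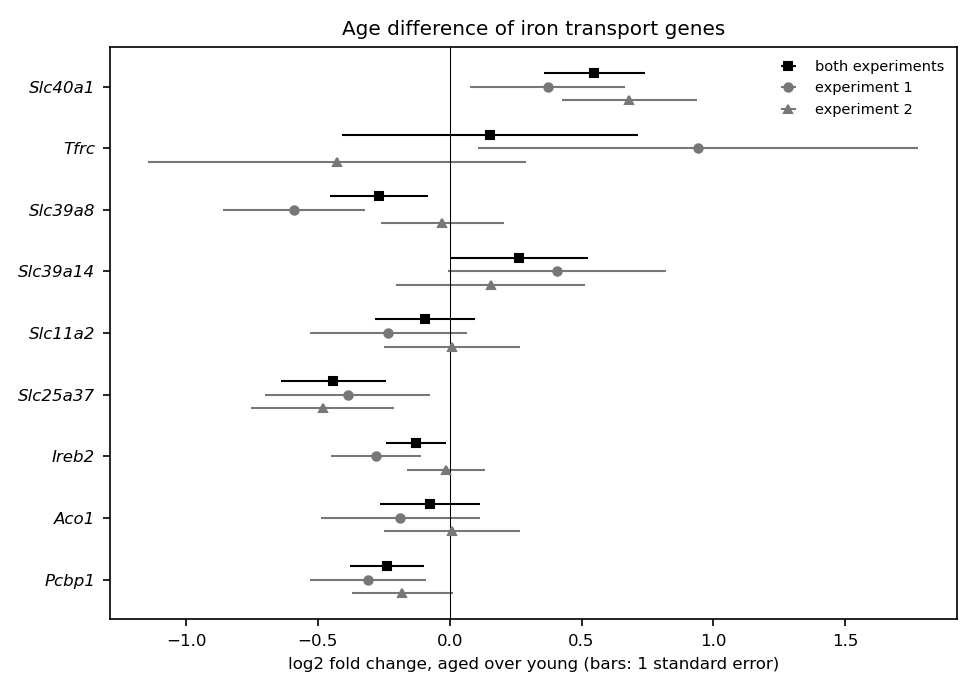
Log2 fold change (aged over young) of each of the 9 matched iron transport genes, over both experiments and within each experiment, from edgeR's quasi-likelihood fit, with bars of 1 standard error on each side. Over both experiments Slc40a1 is furthest right at 0.55 and Slc25a37 furthest left at −0.44, and Tfrc has the widest bar (SE 0.56).

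Slc40a1 (NM_016917.2) was higher in most aged libraries. In experiment 1 it had 337, 347 and 169 CPM in aged 1.1, 1.2 and 1.3, against 149, 263 and 247 CPM in young 1.1, 1.2 and 1.3. In experiment 2 it had 396, 296, 361 and 239.6 CPM in aged 2.1 to 2.4, against 211, 169, 251 and 176 CPM in young 2.1 to 2.4. In all, 5 aged libraries lay above every young library, aged 2.4 lay among the upper young values, and aged 1.3 lay among the lowest young values, so the groups overlapped in both experiments. Slc40a1 averaged 306.4 ± 78.5 CPM in aged cells and 209.3 ± 45.6 CPM in young cells (SD, n = 7 each), and 6 of 7 aged libraries were above the young mean.

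The log2 fold change of Slc40a1 was 0.55 (SE 0.19), a fold of 1.46 with a 95% interval of 1.10 to 1.94. Its edgeR quasi-likelihood p was 0.0125 and 0.592 after adjustment over all tested targets, so it was not called. An exact two-sided permutation of the ages within experiments gave p = 0.0357, where the smallest p that its 1400 arrangements allow is 0.00143. It was 1 of 9 such tests made on the matched genes. The 24 tested genes of a further list of iron genes, described below, were permuted too. Each of these tests was repeated without TMM. Within experiment 1 the log2 fold change was 0.37 (SE 0.30), and within experiment 2 it was 0.68 (SE 0.26). The difference between the experiments had an unadjusted p of 0.442 in edgeR.

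Leaving out any 1 library kept Slc40a1 between 0.48 and 0.66 on the log2 scale, with an unadjusted edgeR p under 0.05 in 14 of 14 such fits and an adjusted p of 0.251 to 0.938. The largest value came without aged 1.3, at 1.59-fold (unadjusted p = 0.00107, edgeR adjusted p = 0.251). Macrophages of the liver are known to export much iron through ferroportin, so Kupffer cell and macrophage markers were set beside it. Of 11 such markers 8 were tested, all 8 were higher in aged libraries and none was called, and their sum was 35.7 to 294 CPM in aged and 36.2 to 118.3 CPM in young libraries, with medians of 121.4 and 51.9 CPM. C1qa was at 0 or 1 read in every library, while Clec4f, which marks Kupffer cells, had 5.41 to 63.9 CPM in aged and 1.06 to 24.99 CPM in young libraries. Of the aged libraries, aged 1.3 had the highest sum of these markers and the lowest Slc40a1, and aged 2.4 had the lowest sum and the next lowest Slc40a1. Over all 14 libraries, Slc40a1 had a Pearson's r of 0.41 with the mean log2 CPM of the 8 tested markers. The mean of each experiment was subtracted first, and this r describes the libraries without a test. With the marker level as a term in the fit, the log2 fold change of Slc40a1 was 0.53 and its unadjusted p was 0.0682. In such bulk samples fewer cells of a type and less RNA per cell cannot be told apart.

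**Figure D2:**
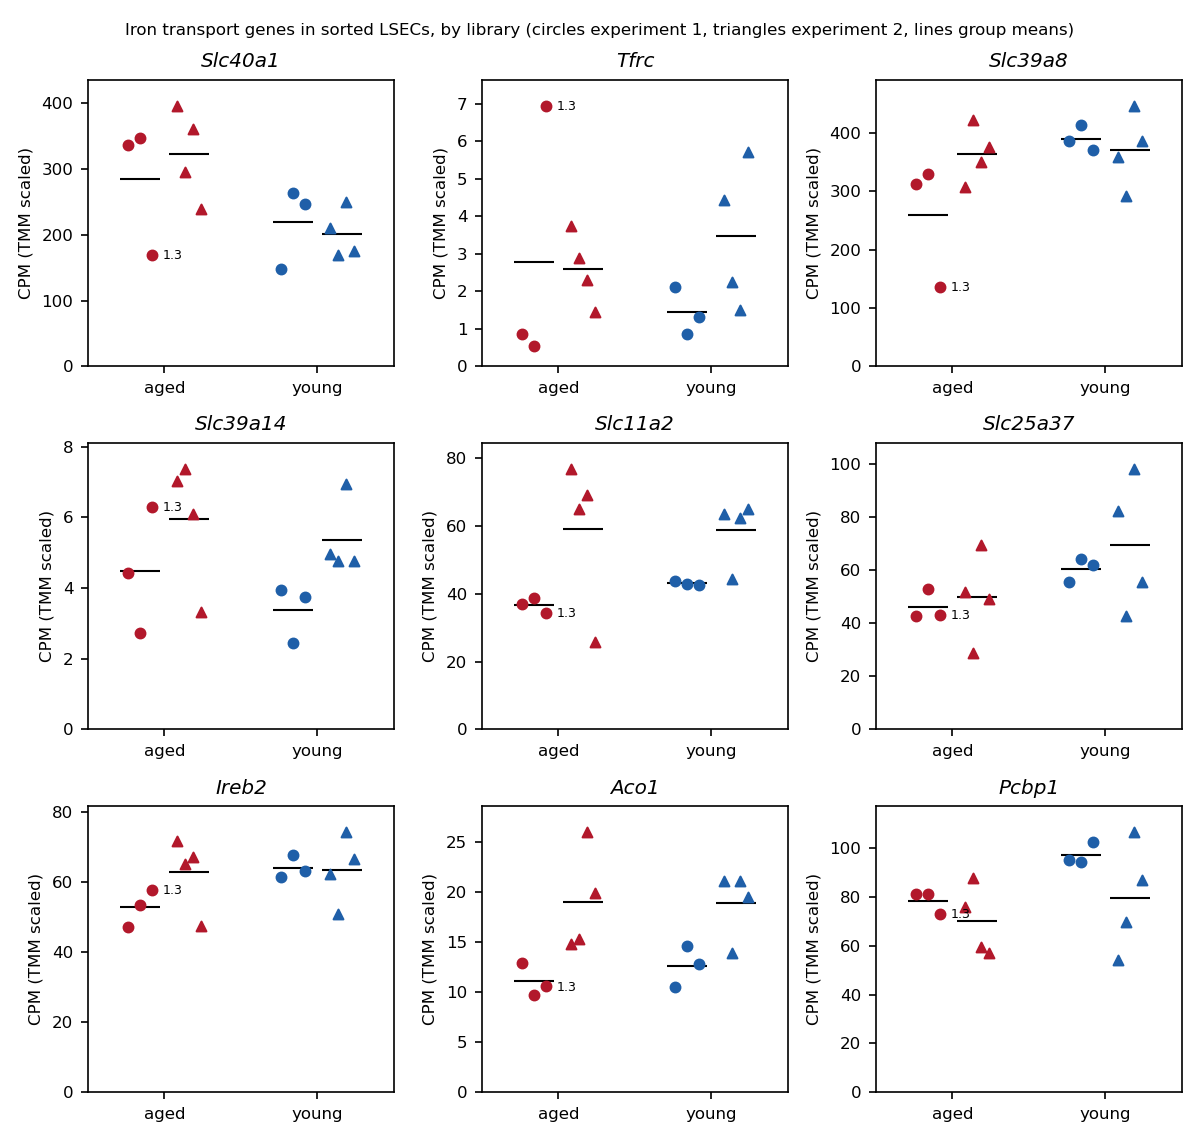
Level of each matched iron transport gene in every library (CPM after TMM, linear axes from 0), aged left of young, with circles for experiment 1, triangles for experiment 2 and a line at the mean of each age in each experiment; aged 1.3 is marked. For Slc40a1, 6 of 7 aged libraries lie above the mean of all 7 young libraries (209.3 CPM), and for Slc25a37, 6 of 7 lie below it (65.6 CPM).

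**Figure D3:**
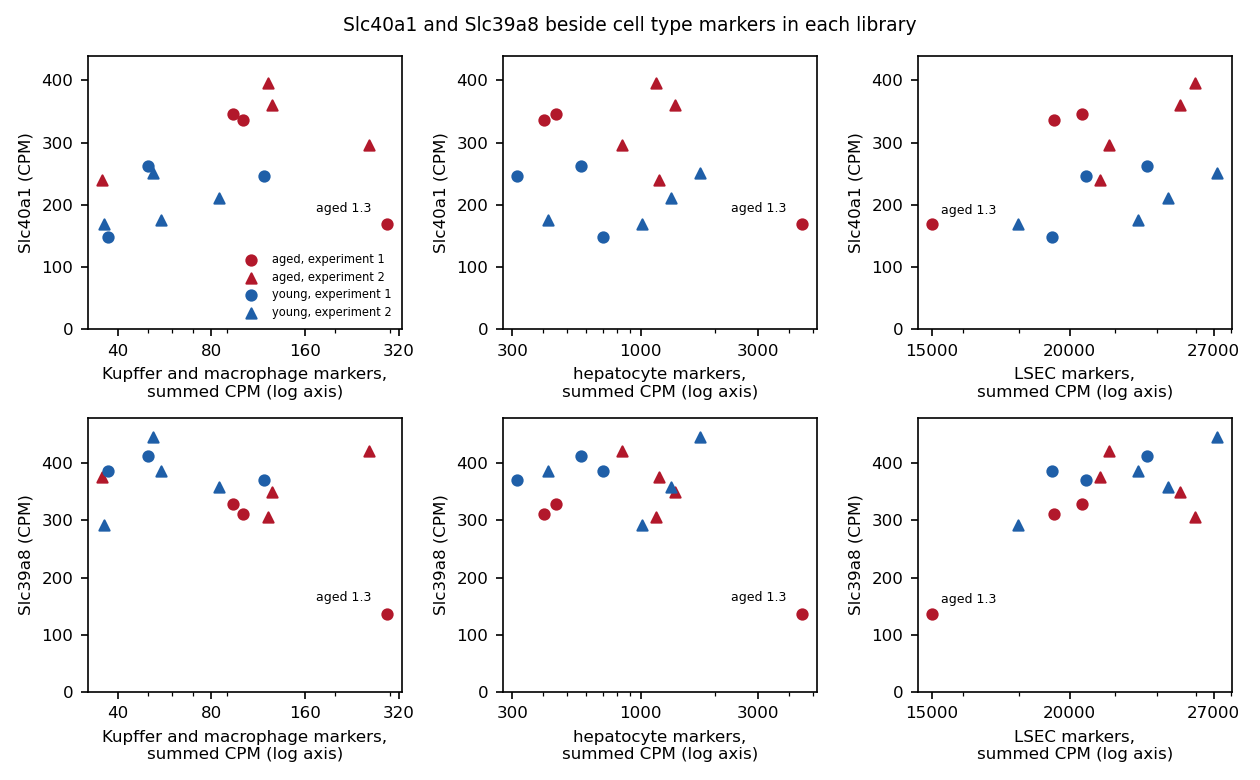
Slc40a1 (top) and Slc39a8 (bottom) in CPM against the summed CPM of Kupffer and macrophage, hepatocyte and LSEC markers on log axes, 1 point a library. Aged 1.3, at 169 CPM of Slc40a1 and 137 CPM of Slc39a8, has the highest hepatocyte sum (4535 CPM) and the lowest LSEC sum (15020 CPM).

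By a rule on likeness, 5 targets with a mean of at least 20 CPM followed Slc40a1 most closely over the 14 libraries in log2 CPM, after the mean of each experiment was subtracted. They were Crebl2 (Pearson's r 0.958), Mdfic (0.935), Zkscan1 (0.934), Ampd3 (0.917) and Slc9a7 (0.913), the highest of 6987 targets compared. These values describe an order and carry no test, and the libraries share depth and composition. The age difference was not subtracted before the correlation, so a direction shared with Slc40a1 follows from the choice and is no separate result. All 5 were higher in aged libraries by log2 fold changes of 0.30 to 0.65, and none was called. Slc9a7, the largest of these, had 37.5 ± 11.2 CPM in aged cells and 23.7 ± 6.13 CPM in young cells (SD, n = 7 each).

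Among the importers, none was called, and Slc39a8 was the one with separate groups and an unadjusted p under 0.05 in experiment 1. Slc39a8 (NM_001135149.1) encodes ZIP8, which carries iron, zinc and manganese into the cell. In experiment 1 it had 312, 329.6 and 137 CPM in the 3 aged libraries, against 386, 413 and 372 CPM in the 3 young libraries. In experiment 2 it had 307, 422, 350.3 and 375 CPM in the aged libraries, against 359, 292, 446 and 386 CPM in the young libraries. All aged values lay below all young values in experiment 1, and the groups overlapped in experiment 2.

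The log2 fold change of Slc39a8 was −0.27 (SE 0.19) over both experiments, −0.59 in experiment 1 (edgeR unadjusted p = 0.0472, adjusted p = 0.762) and −0.03 in experiment 2. Its difference between the experiments had an unadjusted edgeR p of 0.137. Aged 1.3 held the lowest value of all 14 libraries, and without it the log2 fold change over both experiments was −0.12. This library also held the most hepatocyte and the least LSEC marker reads, and their part in the value was not tested.

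Tfrc (NM_011638.4), the transferrin receptor, was read at only 6 to 86 reads a library. It had 0.548 to 6.94 CPM in aged libraries with a median of 2.30, against 0.872 to 5.71 CPM in young libraries with a median of 2.12. The highest of the 14 values was in aged 1.3, and the groups overlapped. Its log2 fold change was 0.15 with an SE of 0.56, a fold with a 95% interval of 0.483 to 2.56. Without aged 1.3 the log2 fold change was −0.63, and limma-voom gave −0.15, so no direction is given for Tfrc.

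Slc39a14 (NM_001135151.1) encodes ZIP14, which takes up iron that is not bound to transferrin, and it had 28 to 78 reads a library. It had 2.74 to 7.37 CPM in aged libraries (median 6.11) and 2.44 to 6.94 CPM in young libraries (median 4.76). The groups overlapped in both experiments. Aged over young, Slc39a14 had a log2 fold change of 0.26 (SE 0.26), and with the Kupffer and macrophage marker level as a term it was −0.23.

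Slc11a2 (NM_001146161.1) encodes DMT1, which moves iron out of endosomes after transferrin uptake. In experiment 1 it had 36.9, 38.8 and 34.4 CPM in aged libraries, against 43.8, 42.9 and 42.7 CPM in young libraries. Experiment 2 gave 76.8, 65.1, 69.0 and 25.9 CPM in aged libraries, against 63.5, 44.3, 62.3 and 65.1 CPM in young libraries. Aged values were below young values throughout experiment 1, while in experiment 2 the lowest value of each age was in aged 2.4 and young 2.2, the 2 libraries of that experiment with most receptor target reads. For Slc11a2 the log2 fold change was −0.09 (SE 0.19) over both experiments, 0.028 without aged 2.4 and −0.17 with the share of receptor reads as a term. With the Kupffer and macrophage marker level as a term it was −0.50.

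Slc25a37 (NM_026331.3) encodes mitoferrin-1, which brings iron into mitochondria for heme and iron-sulphur clusters and is best known from developing red cells. In experiment 1 it had 42.8, 52.8 and 43.0 CPM in aged libraries, against 55.3, 64.0 and 61.8 CPM in young libraries. Experiment 2 gave 51.8, 28.9, 69.4 and 48.9 CPM in aged libraries, against 82.3, 42.6, 98.0 and 55.3 CPM in young libraries. The groups were separate in experiment 1 and overlapped in experiment 2, where the young libraries alone spanned 42.6 to 98.0 CPM. Mean levels were 48.2 ± 12.3 CPM in aged cells and 65.6 ± 18.6 CPM in young cells (SD, n = 7 each).

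The log2 fold change of Slc25a37 was −0.44 (SE 0.20), a fold of 0.737 with a 95% interval of 0.549 to 0.989, and it was −0.39 in experiment 1 and −0.48 in experiment 2. The unadjusted edgeR p was 0.0428 and the adjusted p 0.720, and the exact two-sided permutation within experiments gave p = 0.0671. Of 14 fits that left out 1 library each, 5 kept an unadjusted p under 0.05. Erythroid markers, of which 5 of 9 were matched, summed to 3.92 to 44.9 CPM in aged and 3.54 to 31.5 CPM in young libraries. The highest Slc25a37 value of each age was in aged 2.3 and young 2.3, which had erythroid sums of 5.71 and 3.54 CPM. The highest erythroid sum of each age was in aged 2.4 and young 1.1. Receptor targets took 2.81% and 3.02% of gene reads in aged 2.4 and young 1.1, against 0.146% and 0.25% in aged 2.3 and young 2.3. A link of Slc25a37 to erythroid reads was not tested. The other mitoferrin gene, Slc25a28, had a log2 fold change of −0.05 and was not called.

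Neither gene for the proteins that bind iron-responsive elements was called. Ireb2 (NM_022655.3) encodes iron regulatory protein 2, which is degraded when iron is plentiful. It had 47.2 to 71.8 CPM in aged libraries (median 57.7) and 50.8 to 74.3 CPM in young libraries (median 63.1). In experiment 1 aged values of 47.2, 53.5 and 57.7 CPM lay below young values of 61.6, 67.6 and 63.1 CPM, and in experiment 2 the groups overlapped. The lowest Ireb2 values of experiment 2 were 47.5 CPM in aged 2.4 and 50.8 CPM in young 2.2, the libraries of that experiment with most receptor target reads. With the share of receptor reads as a term its log2 fold change was −0.15. Without the term it was −0.13 (SE 0.11), with a 95% interval on the fold of 0.772 to 1.08.

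Aco1 (NM_007386.2) encodes iron regulatory protein 1, which works as cytosolic aconitase while it holds an iron-sulphur cluster and binds RNA without it. It had 9.68 to 26.0 CPM in aged libraries (median 14.8) and 10.5 to 21.1 CPM in young libraries (median 14.6), and the groups overlapped in both experiments. The log2 fold change was −0.08 (SE 0.19), with a 95% interval on the fold of 0.716 to 1.26. Fbxl5, which marks iron regulatory protein 2 for degradation, had a log2 fold change of −0.02 and was not called.

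Pcbp1 (NM_011865.3) encodes a chaperone that hands iron to ferritin and also binds RNA. It had 80.9, 81.3 and 72.9 CPM in the aged libraries of experiment 1, against 94.9, 94.4 and 102.5 CPM in the young libraries. Experiment 2 gave 75.8, 87.5, 59.5 and 57.1 CPM in aged libraries, against 54.2, 69.7, 106.4 and 86.9 CPM in young libraries. The groups were separate in experiment 1, and in experiment 2 the young libraries spanned a wider range than the aged. For Pcbp1 the log2 fold change was −0.24 (SE 0.14), and Pcbp2, a related iron chaperone, had −0.05.

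The 9 genes were also read within each experiment, where separate groups are more frequent with 3 libraries an age than with 4. In experiment 1, 5 of the 9 (Slc39a8, Slc11a2, Slc25a37, Ireb2 and Pcbp1) had all 3 aged values below all 3 young values and 0 had the opposite, beside 12.2% and 6.87% of all tested targets. In experiment 2 no gene was separate in either direction, beside 0.903% of targets with aged above and 0.466% with aged below. The same holds over all 14 libraries, where 0.12% and 0.113% of targets were separate. The experiments agreed in the sign of the log2 fold change for 6 of the 9 genes and differed for Tfrc, Slc11a2 and Aco1. Within experiment 1, edgeR called 0 of the 9 genes, beside 0% of targets. At an unadjusted p under 0.05 there were 0 higher and 1 lower, Slc39a8, beside 2.57% and 3.88% of targets. Within experiment 2, 0 were called, beside 0.00706% of targets. At the looser mark 1 was higher, Slc40a1, and 0 were lower, beside 1.69% and 1.1% of targets. Set against each other, the experiments differed in 0 of the 9 genes by edgeR's interaction term, also at an unadjusted p under 0.05, which 2.18% of targets passed.

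Other genes of iron handling were read from a list of 36. Of these, 33 matched a target, 24 were tested and edgeR called 0, beside 0.162% of all tested targets, with 15 higher and 9 lower in aged LSECs. DESeq2, which called 146 targets in all where edgeR called 23, called 2 of these genes. They were Cd163 and Bmp6, both higher in aged LSECs (DESeq2 adjusted p = 0.0245 and 0.0264). The median edgeR log2 fold change of the 24 tested genes was 0.21, beside −0.00 for all tested targets. At an unadjusted edgeR p under 0.05, 3.43% of targets were higher and 3.34% lower, and of these 24 genes 5 were higher (Bmp6, Lrp1, Cp, Lcn2 and the macrophage receptor gene Cd163, which is also a Kupffer marker, averages under 5 CPM and is named after its value was seen) and 0 lower. The exact two-sided permutation within experiments gave p = 0.174 for Cp and 0.137 for Lcn2. It gave 0.00429 for Bmp6, 0.0257 for Lrp1 and 0.00286 for Cd163. Bmp6 (NM_007556.3) had the smallest edgeR p of the tested genes on this list with a mean of at least 5 CPM. It had 699, 739 and 534 CPM in aged and 357, 513 and 351.3 CPM in young libraries of experiment 1, where the groups were separate. In experiment 2 it had 504, 492, 537 and 511 CPM in aged and 362, 209.8, 504 and 216 CPM in young libraries, where only young 2.3 reached the aged values.

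All 7 aged libraries were above the young mean of Bmp6, and its fold was 1.60 with a 95% interval of 1.21 to 2.10 (edgeR adjusted p = 0.408, DESeq2 adjusted p = 0.0264). With the Kupffer and macrophage marker level as a term, its log2 fold change was 0.79 in place of 0.67. Lrp1, an endocytic receptor that takes up heme bound to hemopexin, had 4.20 to 25.9 CPM in aged and 3.07 to 14.3 CPM in young libraries, with medians of 15.4 and 4.05 CPM. Its fold was 2.42, and its log2 fold change was 1.27 and −0.01 with the same term. Cp, the ferroxidase ceruloplasmin that works with ferroportin, had 1.70 to 81.5 CPM in aged libraries (median 16.9) and 1.95 to 23.9 CPM in young libraries (median 12.1). Its groups overlapped, and its log2 fold change of 1.36 was 0.15 with that term and 0.73 without aged 1.3.

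Lcn2, a protein that binds iron-loaded siderophores, had 3.85 to 68.2 CPM in aged libraries (median 11.7) and 3.84 to 15.5 CPM in young libraries (median 8.21). Tmprss6, a hepatocyte protease that restrains hepcidin, had 1.47 to 26.8 CPM in aged libraries (median 6.19) and 0.856 to 5.44 CPM in young libraries (median 3.07). Its highest value was in aged 1.3, the library with the most hepatocyte marker reads, and without it the log2 fold change was 0.24 in place of 1.27. Slc48a1, a heme transporter of endosomes and lysosomes, had 44.1 ± 10.8 CPM in aged cells and 35.0 ± 6.59 CPM in young cells (SD, n = 7 each), a fold of 1.26. None of Lrp1, Cp, Lcn2, Tmprss6 and Slc48a1 was called by edgeR.

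Heme oxygenase 1, the product of Hmox1, frees iron from heme. Hmox1 had 98.1 to 152.9 CPM in aged libraries (median 115.9) and 73.1 to 127.8 CPM in young libraries (median 90.7), a fold of 1.20 that was not called (edgeR adjusted p = 0.863). Ferritin, the iron store, could not be compared: the Fth1 target, a non-coding transcript record, had at most 1 read in any library, and Ftl1 matched no target.

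**Figure D4:**
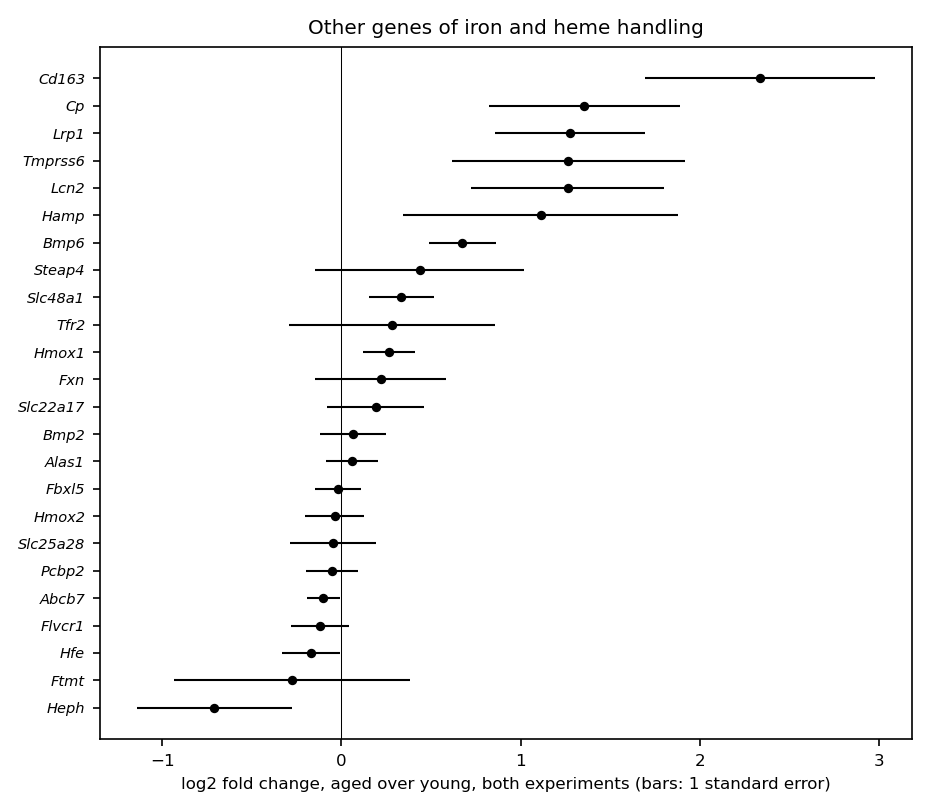
Log2 fold change (aged over young) for the 24 tested members of the list of other iron genes, from edgeR's fit over both experiments, with bars of 1 standard error on each side. Bmp6 lies at 0.67 and Cd163 furthest to the right at 2.34, and edgeR called none of these genes.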

How the data were processed

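RNA of sorted aged and young LSECs was read with the Ion AmpliSeq mouse transcriptome panel, per the labels' protocols. The authors deposited raw read counts per RefSeq target, 1 file a library. HTSeq 0.6.0 and DESeq2 1.18.1 are named in the submitters' processing notes. The aligner, the build and the strand setting were not given in the sources used here. The 5 bookkeeping entries (1.24 to 3.04% of reads) were left out. Symbols came from RefSeq GRCm38.p6 (18124 targets by full identifier, 4324 without version) and GENCODE (114), and 1368 targets with 0.231 to 1.08% of reads stayed unnamed in the tests.

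Here filterByExpr by age kept 14168 of 23930 targets. edgeR 4.0.16 (R 4.3.3) fitted age and experiment, with TMM scaling and Benjamini-Hochberg adjustment over all tested targets at 0.05. A model of 4 means gave each experiment and their difference. Standard errors were taken from the F statistic. Permutations used log2 CPM with a prior count of 2. DESeq2 1.42.0, limma 3.58.1 (voom), other scalings, filters, covariates and left-out libraries were alternatives. The steps were tested on simulated counts. Reads carry no molecular identifiers, so counts are not molecules.

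The 10 genes, the list of other iron genes and the marker lists were chosen with earlier results of these data known. Named genes were all 10, up to 6 other iron genes of at least 5 CPM with the smallest p, and Bmp6, Hmox1, Fth1 and Ftl1. For likeness to Slc40a1 the 5 targets of at least 20 CPM with the highest correlation were named. A genome was used for the element sequences only, since the build behind the counts is not stated.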

Additional observations from a re-analysis of the deposited data

Results flagged for a closer look

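In 66 groups of 7 libraries of 1 age, 3 held a library far from the other 6 by Dixon's test, where chance gives about 1 in 20 groups, or 3.3. Aged 1.3 had the lowest Slc39a8 of the aged libraries at 136.6 CPM, with the next at 307 CPM. It also had the lowest level of Hmox2, the constitutive heme oxygenase, at 112.9 CPM against 206 to 246 CPM in the other aged libraries. Both values are in the library with the most hepatocyte and the least LSEC marker reads. Steap4, a metalloreductase, was highest in young 2.3 at 23.5 CPM, against 2.02 to 5.55 CPM in the other young libraries.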

How the results depend on the processing

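None of the 9 matched genes was called under any of 25 alternatives, and Slc40a1 kept its direction in all 25 (log2 fold change 0.48 to 0.66, edgeR, DESeq2 or limma adjusted p 0.159 to 0.938). Signs turned for Tfrc, Slc39a14 and Slc11a2, and the cause was not tested. Tfrc had −0.15 with limma-voom, −0.12 with the replicate block and −1.33 with the Kupffer and macrophage term. It had −0.63 without aged 1.3, −0.025 without young 1.2 and up to 0.38 with another library left out. Slc39a14 had −0.23 with the Kupffer and macrophage term. Slc11a2 had 0.028 without aged 2.4, down to −0.19 with another library left out and −0.50 with the Kupffer and macrophage term. The 23 targets called overall became 146 with DESeq2, 46 without TMM, 12 without the experiment term, 59 with the receptor term, 2 with the Kupffer and macrophage term, 36 without young 2.2 and aged 2.4, 4 with aged 1.1 and aged 1.2 summed, and 34 with a filter by model design, which was chosen after seeing the data. Leaving out 1 library gave 4 to 29: 4 for aged 1.1 or aged 1.2, 5 for aged 2.1 or young 2.4, 8 for aged 2.2, 9 for young 1.3 or aged 2.3, 10 for young 1.1 and 11 for young 2.3. DESeq2 called 2 other iron genes, Cd163 and Bmp6 (adjusted p 0.0245 and 0.0264). In edgeR, leaving out 1 library called 0 to 1 of the other iron genes. The 1 was Steap2, lower in aged libraries, in the fit without aged 1.3. Steap2 is under the filter in the main fit. It passed in this one mainly through the young libraries, where it is high, so the call is no separate support.

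Whether replicate numbers pair the libraries was not settled. Deviations of same-numbered libraries correlated at −0.38 to 0.78, over 0.1 in 4 of 7 pairs. Of 14 libraries, 6 correlated best with the library of their own number. With the number as a replicate block 5 targets were called and Slc40a1 had 0.54 (edgeR adjusted p 0.650). Tfrc, with 6 to 86 reads a library, had the widest interval of the 9 genes, and the part of depth in that was not tested.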

Other observations

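Steap2, a metalloreductase that turns ferric into ferrous iron for uptake, is on the list of other iron genes but fell under the filter on low counts, and it is named here after its values were seen. It had 0, 3, 7, 6, 9, 5 and 3 reads in the aged libraries (0 to 1.04 CPM), against 11, 9, 19, 97, 23, 52 and 74 reads in the young libraries (0.784 to 8.81 CPM). The ages did not overlap within either experiment, and aged 2.2 lay above young 1.1 and young 1.2. With no filter on low counts its log2 fold change was −2.82 (edgeR adjusted p = 0.127). Over the alternatives in which it was tested, the adjusted edgeR p was 0.0287 to 0.234, and the lowest of these, the only one under 0.05, came without aged 1.3. Where a filter was used, Steap2 passed it mainly through the young libraries, where it is high. Those p-values are therefore no separate support for a difference. Its relative Steap1 had at most 2 reads in any aged library and 1 to 16 reads in the young libraries.

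Ftmt, the mitochondrial ferritin gene, is also named after its values were seen. It had 41.4, 29.5 and 28.9 CPM in aged and 39.4, 15.3 and 32.6 CPM in young libraries of experiment 1. In experiment 2 it had 3.85, 7.37, 1.75 and 31.9 CPM in aged and 23.3, 39.3, 2.31 and 4.64 CPM in young libraries, and the 2 highest of these were aged 2.4 and young 2.2, which also held the most receptor target reads in that experiment.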
